A study of Mus musculus with 4 samples.

Results

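Distal open chromatin regions that carried several AP-1 sites were examined in keratinocytes from imiquimod-treated mouse skin. Peaks of the 4 deposited ATAC-seq lists were merged wherever they shared 1 bp, which gave 82641 regions. The summit of a region was that of its peak with the highest fold enrichment. A region was kept if it lay more than 2 kb from every annotated transcription start site (TSS) and had at least 2 exact, non-overlapping copies of TGACTCA, on either strand, within 150 bp of the summit. Of 60609 distal regions, 2328 met this rule (3.84%) and are called members here. A further 16167 distal regions held 1 site and 42114 held none, and these served for comparison. No accessibility difference between the genotypes entered the choice.

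ATAC-seq uses the Tn5 transposase to tag open chromatin. All 4 libraries came from female mice of 8 to 12 weeks on a C57BL/6 background, treated on the skin for 8 days with Aldara cream (5% imiquimod), which provokes a psoriasis-like inflammation, and sampled 4 h after the last application. The 2 WT libraries are labelled Wild Type. The study used littermates as controls, and whether these WT mice carried floxed Mapk8 alleles is not given in the sources used here. The 2 Mapk8-KO libraries came, per the study's methods, from Mapk8∂Ep mice, which combine Mapk8 fl/fl alleles with a KRT14-cre transgene, so that Cre acts in keratin 14-expressing cells. Keratinocytes were sorted as EpCam+ CD49f-high cells with a staining mix that also held antibodies to CD45, CD31 and CD140a. The study describes the 2 libraries of a genotype as independent samples, and whether each came from a single mouse or a pool is not given in the sources used here. No untreated library was analysed here.

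AP-1 is a dimer of JUN with FOS, ATF or JUN family proteins that binds the palindrome-like sequence TGACTCA, read as TGAGTCA on the opposite strand. JNK kinases, among them JNK1 encoded by Mapk8, phosphorylate the activation domain of c-Jun. In keratinocytes AP-1 acts at enhancers of genes for proliferation, differentiation and the response to stress and cytokines, and it helps other factors reach chromatin. Members are named here by the gene with the nearest TSS, which need not be the gene they act on.

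The sequences below are from GRCm38, the assembly that mm10 denotes, read 5′ to 3′ on the plus strand, with the AP-1 sites in capitals. TGACTCA therefore marks a site read on the plus strand, and TGAGTCA one on the minus strand. The first set shows evenly repeated sites, the most site-dense form among the members.
Gm5444, chr13:4778422-4778668: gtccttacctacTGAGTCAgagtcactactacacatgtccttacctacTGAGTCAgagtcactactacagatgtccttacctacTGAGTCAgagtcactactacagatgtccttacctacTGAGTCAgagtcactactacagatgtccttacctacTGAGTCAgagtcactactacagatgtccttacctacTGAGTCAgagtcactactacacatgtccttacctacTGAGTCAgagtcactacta
2310043M15Rik (intron of Dop1b), chr16:93778297-93778595: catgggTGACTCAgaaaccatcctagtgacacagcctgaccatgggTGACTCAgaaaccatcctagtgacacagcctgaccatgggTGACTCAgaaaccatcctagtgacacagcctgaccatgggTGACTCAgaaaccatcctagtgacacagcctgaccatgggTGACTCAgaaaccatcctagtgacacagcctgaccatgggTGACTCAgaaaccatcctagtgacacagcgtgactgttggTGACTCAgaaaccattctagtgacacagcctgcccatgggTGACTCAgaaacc
Gm24308, chr6:137843513-137843628: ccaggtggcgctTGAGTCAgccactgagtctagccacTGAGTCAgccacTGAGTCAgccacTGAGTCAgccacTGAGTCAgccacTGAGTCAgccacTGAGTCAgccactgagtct
A530006G24Rik, chr2:147744068-147744173: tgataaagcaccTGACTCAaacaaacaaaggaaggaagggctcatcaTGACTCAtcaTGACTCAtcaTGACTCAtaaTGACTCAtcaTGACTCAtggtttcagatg
The second set shows pairs in which the sites adjoin with no base between them, or are a few bases apart.
Gm23233, chr7:67558426-67558463: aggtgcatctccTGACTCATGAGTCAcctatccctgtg
Mbip, chr12:56319057-56319146: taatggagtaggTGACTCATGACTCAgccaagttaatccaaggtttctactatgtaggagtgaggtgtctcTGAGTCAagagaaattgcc
Cfap69, chr5:5648957-5649036: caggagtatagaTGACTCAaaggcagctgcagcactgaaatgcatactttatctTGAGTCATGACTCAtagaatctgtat
Cdk6, chr5:3333550-3333590: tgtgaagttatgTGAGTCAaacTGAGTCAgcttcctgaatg
Itga6, chr2:71801795-71801837: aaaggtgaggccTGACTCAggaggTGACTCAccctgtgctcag
The third set shows members near a gene of cytokine signalling and one of cell adhesion, at wider spacing. It also shows 3 of the members ranked highest by fold enrichment, near Gm47729, Gm6059 and Adgrv1.
Il24, chr1:130892528-130892630: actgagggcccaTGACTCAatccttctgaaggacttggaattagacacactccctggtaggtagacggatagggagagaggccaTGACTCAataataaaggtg
Vcl, chr14:20973975-20974077: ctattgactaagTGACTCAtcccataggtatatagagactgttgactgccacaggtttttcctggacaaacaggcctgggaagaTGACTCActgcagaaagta
Gm47729, chr10:16589531-16589602: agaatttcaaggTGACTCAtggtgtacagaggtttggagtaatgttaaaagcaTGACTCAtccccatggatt
Gm6059, chr3:142222633-142222733: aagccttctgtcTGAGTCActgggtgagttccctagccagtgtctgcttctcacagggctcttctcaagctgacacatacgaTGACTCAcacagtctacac
Adgrv1, chr13:81401878-81401967: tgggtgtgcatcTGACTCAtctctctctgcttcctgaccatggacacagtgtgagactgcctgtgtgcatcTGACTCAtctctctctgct
The fourth set shows 7 members with higher accessibility in WT than in Mapk8-KO keratinocytes, followed by 1 called only in WT and 1 called only in Mapk8-KO libraries.
Gm5175, chr10:102829662-102829812: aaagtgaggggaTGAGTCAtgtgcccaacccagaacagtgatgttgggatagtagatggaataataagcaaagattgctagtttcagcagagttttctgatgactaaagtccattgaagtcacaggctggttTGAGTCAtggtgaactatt
Lrrc17, chr5:21493746-21493840: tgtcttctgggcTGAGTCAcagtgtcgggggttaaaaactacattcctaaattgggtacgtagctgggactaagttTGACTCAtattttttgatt
Gm37491, first, chr1:186289301-186289370: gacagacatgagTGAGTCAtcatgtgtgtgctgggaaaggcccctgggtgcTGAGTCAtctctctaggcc
Gm37491, second, chr1:186294877-186294976: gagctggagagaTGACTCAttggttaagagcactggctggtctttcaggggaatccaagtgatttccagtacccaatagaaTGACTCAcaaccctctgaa
Mapk10, chr5:103231954-103232030: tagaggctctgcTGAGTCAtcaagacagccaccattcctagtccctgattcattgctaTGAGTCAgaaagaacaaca
Gm43235, chr3:90862594-90862639: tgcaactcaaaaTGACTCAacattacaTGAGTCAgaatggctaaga
Usp7, chr16:8810792-8811022: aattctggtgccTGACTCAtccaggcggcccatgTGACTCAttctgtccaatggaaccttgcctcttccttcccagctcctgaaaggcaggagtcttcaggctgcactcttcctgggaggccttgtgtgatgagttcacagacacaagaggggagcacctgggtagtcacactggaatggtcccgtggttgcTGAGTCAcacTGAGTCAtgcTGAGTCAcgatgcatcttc
Gm43718, only in WT, chr5:13667525-13667606: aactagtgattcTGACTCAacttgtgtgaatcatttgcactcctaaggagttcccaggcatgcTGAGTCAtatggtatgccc
Gm16555, only in Mapk8-KO, chr17:49751044-49751154: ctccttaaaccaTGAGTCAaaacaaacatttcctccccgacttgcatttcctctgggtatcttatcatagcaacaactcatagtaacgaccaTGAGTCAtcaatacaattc

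Most members were plain pairs. Of the 2328, 2111 had 2 sites (90.7%), 171 had 3 and 46 had 4 or more. The starts of the 2 sites of a pair lay a median of 62 bp apart (quartiles 32 and 108 bp), and 307 of the 2111 pairs were within 20 bp of each other. The most frequent single spacing was 11 bp, found in 39 pairs. In 8 pairs the sites adjoined exactly, as in the member near Gm23233 printed above. Both sites had the same orientation in 1163 pairs (55.1%).

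Sites lay close to the summit, which the rule required only to within 150 bp. The centre of a member's site was a median of 43 bp from the summit, and the nearest site of each member a median of 24 bp. In distal regions with 1 site, the site lay a median of 35 bp from the summit. Sites of a member stood on both sides of the summit in 1290 cases (55.4%). Of member sites, 28.2% were within 24 bp of the summit and 5.28% at 125 to 149 bp.

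**Figure D1:**
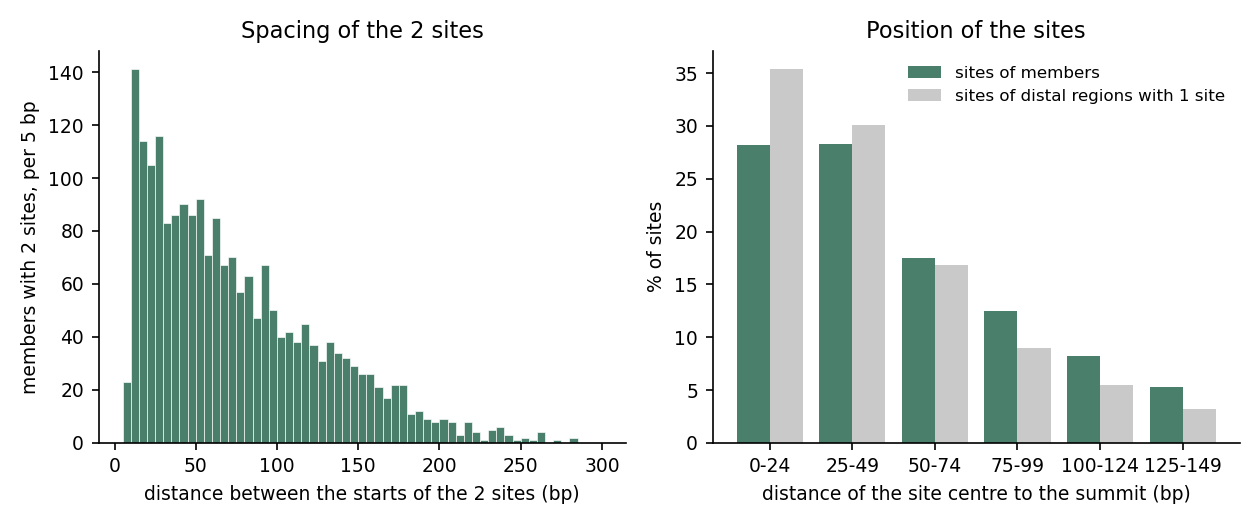
The left panel gives the number of members with 2 sites by the distance between the starts of the sites (bp, bins of 5 bp), and the right panel the percent of AP-1 sites by distance from the summit (bp) in members and in distal regions with 1 site. Short spacings were the most common (median 62 bp), and 28.2% of member sites against 35.4% of single sites lay within 24 bp of the summit.

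The bases beside the sites differed little from those of single sites. Read 5′ to 3′ towards the site on each flank, the adjoining base of member sites was A in 28.8%, C in 30.0%, G in 29.8% and T in 11.3%. In distal regions with 1 site the shares were 31.0%, 29.2%, 30.9% and 8.85%. Among 1686 pairs whose 10-bp flanks did not overlap, the flanks of the 2 sites matched at a median of 5 of 20 bases. In 17 pairs (1.01%) at least 16 bases matched, as in the pair near Adgrv1 printed above.

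A small group was built otherwise. In 50 members (2.15%) at least 3 neighbouring sites faced the same way at spacings within 1 bp of each other, a definition chosen after the site positions had been seen. The repeat unit was 8 to 92 bp long (median 34 bp). The units of 1 array were identical at a median of 97.2% of bases, with 41 of 50 arrays at 90% or above. Arrays made up 36 of the 46 members with 4 or more sites and 27 of the 29 with 5 or more. The genome's repeat annotation, read from lower-case bases, covered most of the window in 7 arrays and no base in 26.

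Arrays reached high accessibility in some cases and were barely detected in others. Accessibility is given as summit pileup, the number of sequenced fragments covering the summit, solved from the deposited fold enrichment and p-value. Pileups of a member are listed for the first and second library of each genotype, WT before mutant. Near Gm5444, 7 sites at a period of 36 bp had 213 and 162 fragments in WT against 208 and 90 in the mutant. In an intron of Dop1b, 8 sites at 40 bp had 77 and 57 fragments in WT against 69 and 40. In an intron of Dnajc13, near Hmgb1-rs16, 8 sites had 53 and 52 against 64 and 35. A member near Gm24308 with 6 sites in a row at 12 bp had 93 and 60 against 91 and 54 fragments. Alg9, a mannosyltransferase gene, harboured 8 sites at 34 bp in an intron, but that region was called only in WT 2 (16 fragments) and Mapk8-KO 1 (14 fragments). Members with 8 sites near Gm47942 and Gm43466 were each called in 1 library, with 12 fragments in WT 1 and 20 fragments in WT 2. Of the 50 arrays, 21 were called in all 4 libraries (42.0%, 95% Wilson interval 29.4 to 55.8) and 15 in a single library (30.0%), against 48.6% and 21.7% of all regions. The study removed reads with several mapped positions, which near-identical repeats can give, so pileups over arrays are less certain than those over unique pairs.

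**Figure D2:**
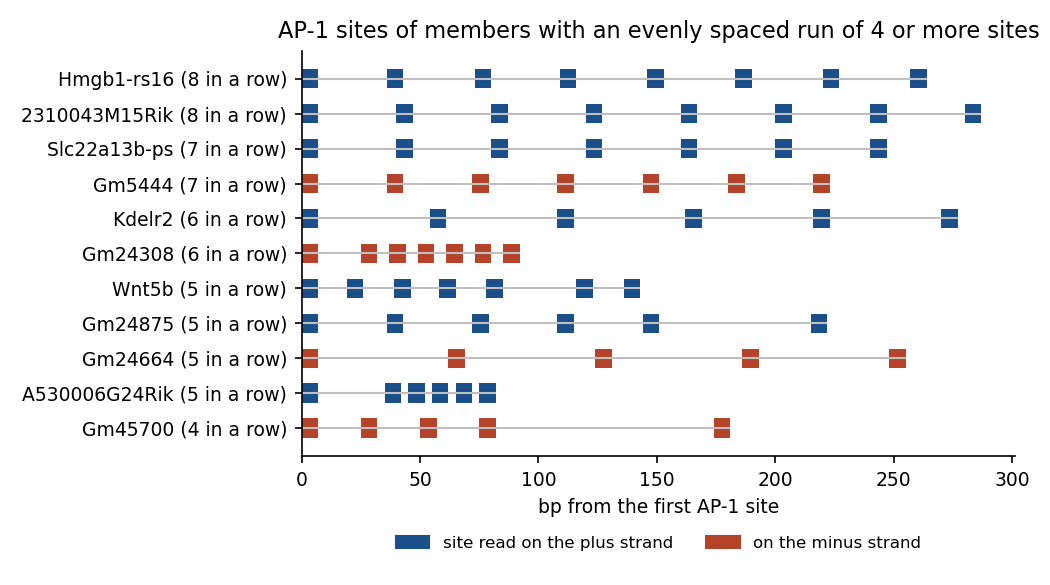
Each line is a member called in all 4 libraries with at least 4 evenly spaced AP-1 sites, with the position of each 7-bp site in bp from the first one, coloured by strand; the number in a row is that of the evenly spaced run. The runs hold 4 to 8 sites, all on 1 strand within a member.

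Members lay in introns in 1163 cases, between genes in 1105 and in exons in 60. Their median distance to the nearest TSS was 17296.5 bp, against 16748 bp for distal regions with 1 site and 16615.5 bp without a site. They belonged to 2146 nearest genes, of which 1980 had 1 member and none more than 4, and 109 members lay within 10 kb of another. At the edge of the distance rule, a member 2004 bp from the TSS of Rpl30-ps1 had 52 and 30 fragments in the WT libraries, 36 in the first mutant library and no peak in the second. Just outside it, a region with 2 sites 1997 bp from the TSS of Limk1 had 62 and 50 fragments against 53 and 16.

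Other motifs were searched on both strands in the same 301-bp windows. An extended AP-1 form, TGAGTCA preceded directly by TGC, which contains the AP-1 site and is bound by NFE2-type dimers, was present in 6.66% of members and 3.40% of distal regions with 1 site, against 0.968% of all regions. A member has at least 2 AP-1 sites that could carry the extension, and a region of the comparison 1. The GC-rich letters GGGTGTG (KLF) were in 9.54% of members (95% Wilson interval 8.41 to 10.8), in 13.1% of regions with 1 site, in 16.6% without a site and in 14.6% of all regions. For TTGCNNAA (C/EBP) the shares were 13.9% (12.5 to 15.3), 16.2%, 18.2% and 15.6%, and for GCCNNNGGC (AP-2) 7.69% (6.68 to 8.84), 9.54%, 10.6% and 13.6%. For GGAATG (TEAD) they were 18.3%, 21.02%, 19.9% and 18.4%. For TGTGGTT (RUNX) they were 6.44% (5.52 to 7.51), 6.53%, 6.59% and 5.87%, and for TTCNNNGAA (STAT) 10.1% (8.94 to 11.4), 9.74%, 9.43% and 8.79%. KLF and C/EBP letters were thus less frequent the more AP-1 sites a distal region had, while RUNX and STAT letters varied little. The p63 form, CATG repeated after 6 unspecified bases, was found in 1.93% of members, NF-kB letters GGGANTTCC in 1.76%, CCGGAAGT (ETS) in 0.558%, the cyclic AMP element TGACGTCA in 0.387%, AACCGGTT (GRHL) in 0.0859% and the NRF1 palindrome in none, against 1.55%, 1.74%, 1.44%, 0.927%, 0.287% and 0.332% of all regions. The median GC content of the windows was 46.8% in members and 48.2% in distal regions without a site.

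The libraries differed in depth, more within than between genotypes, and the lists held 49856 to 69927 peak intervals. Median summit pileups over the 40159 regions called in all 4 libraries were 49 and 34 fragments in the WT libraries and 54 and 30 in the mutant libraries. Among 6 keratinocyte markers, 5 or 6 had a peak within 2 kb of a TSS in each library, and of 5 leukocyte markers at most 1 did, with Ptprc, Cd3e, Itgam and Csf1r without a peak in all 4. The melanocyte genes Dct, Pmel and Mlana had peaks in every library (20 to 79 fragments), as did Pecam1 and Pdgfra (22 to 58). Cdh5, Col1a2 and Col6a3 had no peak in any library. Krt14, whose human counterpart's promoter drives Cre in the mutants, had 38 and 17 fragments in WT against 199 and 109. Summed pileups were 160 to 277 in WT and 250 to 467 in the mutant for the keratinocyte markers (143 to 239 and 141 to 268 without Krt14), 96 to 141 and 120 to 169 for the melanocyte markers, 50 to 54 and 22 to 65 for the endothelial markers, 26 to 41 and 34 to 58 for the fibroblast markers, and 0 to 18 and 15 to 21 for the leukocyte markers. Their part in the results was not tested. The peak at the Mapk8 promoter (96 and 73 against 109 and 90 fragments) does not show whether the gene is deleted. No member had Mapk8 as its nearest gene.

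Median accessibility was higher with each added site from 0 to 3 in each library. The median summit pileup of distal regions called in all 4 libraries, in the same library order, was 42, 29, 46 and 26 fragments without a site. It was 54, 37, 57 and 28 fragments with 1 site, 68, 47, 71 and 34 with 2, and 89, 62, 95.5 and 45 with 3. On the log2 scale, after centring each library on its median over all regions called in all 4, members stood above distal regions without a site by 0.737, 0.757, 0.666 and 0.429. That was 0.65 ± 0.15 on average (SD, n = 4 libraries), or 1.57-fold. These medians describe regions that are open in every library. The 23 such members with 4 or more sites, most of them arrays, had median pileups of 67, 52, 66 and 32 fragments, near the level with 2 sites. By percentile of fold enrichment within a library, members stood at 70.5, 72.1, 69.1 and 62.6, and distal regions without a site at 43.5, 41.2, 42.8 and 42.7. On this scale members with 4 or more sites stood at 85.6, 83.3, 80.9 and 73.1, above those with 2 sites (68.2, 70.8, 67.4 and 61.2) and near those with 3 (83.4, 84.0, 82.1 and 79.6), so their place depended on the measure. In both measures Mapk8-KO 2 had the smallest step, and the other 3 libraries lay close together. Over every region called in a library, rather than in all 4, the medians were 0.44, 0.32, 0.42 and 0.34 with 2 sites and -0.28, -0.22, -0.26 and -0.24 without a site, and the step in Mapk8-KO 2 was then not the smallest.

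**Figure D3:**
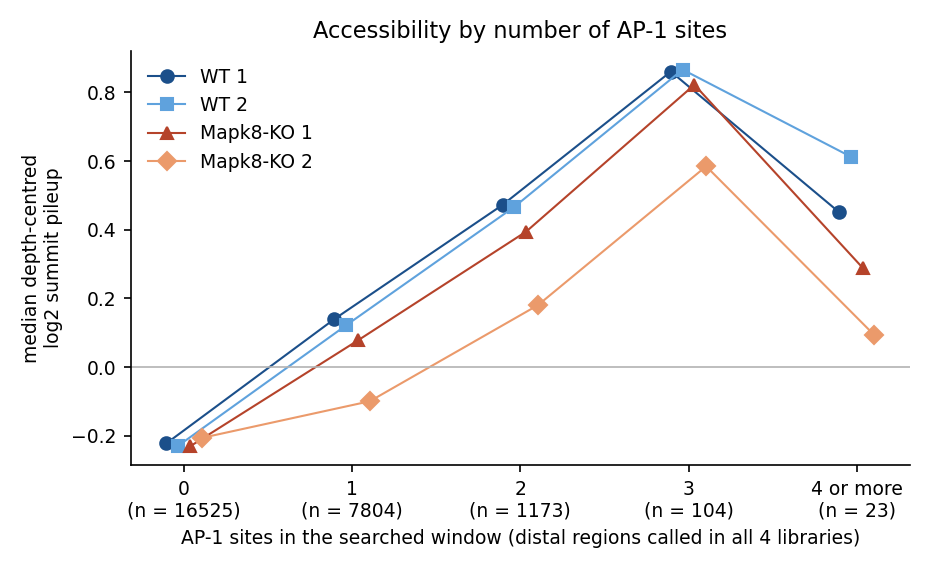
Median depth-centred log2 summit pileup (y axis) of distal regions with 0, 1, 2, 3 and 4 or more AP-1 sites (x axis, with the number of regions), 1 line per library. All 4 libraries start between -0.23 and -0.21 without a site and reach 0.58 to 0.87 with 3 sites, with Mapk8-KO 2 lowest from 1 site on.

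Pairs at short spacing had somewhat lower levels than pairs at long spacing in each library, and similar shares called in all 4. The 173 pairs within 20 bp that were called in all 4 libraries had median pileups of 63, 44, 64 and 31 fragments, and the 345 pairs more than 100 bp apart 70, 47, 71 and 34. The shares called in all 4 libraries were 56.4% (95% Wilson interval 50.8 to 61.8, counting error only) and 58.8% (54.7 to 62.7).

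The members ranked highest by fold enrichment were at the top of every library's list. Near Gm47729 the pileups were 168 and 101 against 181 and 88 fragments, at or above percentile 99.3 throughout. A member near Gm6059 had 261 and 176 against 212 and 122 fragments, and that near Adgrv1, an adhesion receptor gene, 95 and 92 against 94 and 54. Other members of this kind lay near 1110004F10Rik (3 sites in an array of 23-bp units, 113 and 76 against 114 and 48 fragments), Gm5444 and Gm48382. Limma gave adjusted p values between 0.274 and 0.977 for these 6, so no genotype difference was detectable in them at this depth and number of libraries. Adjoining sites also occurred in strongly open members. Near Mbip, which encodes an inhibitor of the JNK-activating kinase MAP3K12, the pileups were 153 and 89 against 201 and 77 fragments. Near Cfap69 they were 204 and 169 against 232 and 115, and near Il7r, the interleukin-7 receptor gene, 102 and 86 against 105 and 39. Limma called none of these (adjusted p values 0.858, 0.757 and 0.203).

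The comparison of WT with Mapk8-KO keratinocytes asks how loss of JNK1 bears on regions with AP-1 sites. Peaks were called in 2135 (91.7%) and 1948 (83.7%) members in the WT libraries, and in 2015 (86.6%) and 1351 (58.0%) in the mutant libraries. Of all regions, 83.8% and 65.2% were called in WT against 83.2% and 59.1%, so the share of members was above that of all regions in 3 libraries and close to it in Mapk8-KO 2. The group means were 2041.5 ± 132.2 in WT and 1683 ± 469.5 in Mapk8-KO (SD, n = 2), and Mapk8-KO 1 lay between the WT libraries. With lists of equal number the counts were 1778 and 1882 in WT against 1692 and 1351, and Mapk8-KO 1 lay below both WT libraries. Members were 4.30% and 5.24% of the distal regions called in WT against 4.11% and 4.16%. In all 4 libraries 1300 members were called (55.8%, 53.8 to 57.8), against 48.3% of distal regions with 1 site and 39.2% without. A further 459 members (19.7%) lacked a peak in Mapk8-KO 2 only, and 25 (1.07%) in WT 2 only. Of all regions, 9.91% and 4.86% did so, of distal regions with 1 site 15.7% and 2.82%, and of those without a site 9.27% and 6.30%. Mapk8-KO 2 was the shallowest library, at 0.612 of the depth of WT 1 against 0.694 for WT 2, and the part of depth in these numbers was not tested.

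Both WT libraries but no Mapk8-KO library had a peak in 84 members (3.61%, 2.92 to 4.45), while 2.17% of all regions had this pattern, 3.27% of distal regions with 1 site and 2.20% of those without. The reverse held for 6 members (0.258%, 0.118 to 0.561), against 1.65% of all regions, 0.600% with 1 site and 2.42% without. Among the strongest of the first kind were members near Gm43718 (31 and 34 fragments in WT 1 and WT 2), in an intron of Itpk1 near Gm37019 (27 and 30) and near Gm16087 (25 and 25). Of the second kind, the strongest lay near Gm37480 (18 and 16 fragments in the mutant libraries), within Kif6, in an intron, near Gm16555 (24 and 14), near Gm13471 (19 and 14) and in an intron of Opcml (18 and 12). A region without a peak is not a region without fragments, so no fold was computed. With a single mutant library each pattern is easier to meet. Without Mapk8-KO 2, 87 members were called in both WT libraries but not in Mapk8-KO 1 (3.74%, all regions 2.56%), and 85 in Mapk8-KO 1 but in neither WT library (3.65%, all regions 10.1%). Without Mapk8-KO 1 the numbers were 543 (23.3%, all regions 12.1%) and 12 (0.515%, all regions 3.63%). The counts thus moved with the mutant library left out, while the members' share stayed above all regions for the first pattern and below for the second. Without WT 1 the first pattern held for 148 members (6.36%, all regions 4.36%). Without WT 2 it held for 233 (10.0%), below all regions (11.3%) and distal regions with 1 site (12.7%). The second pattern held for 1.33% of members without WT 1 (all regions 6.51%) and 0.430% without WT 2 (all regions 2.21%).

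Members open in all 4 libraries had a higher median depth-centred pileup in WT. The library medians on the log2 scale were 0.51 and 0.53 for WT against 0.43 and 0.22. Both WT libraries thus lay above both Mapk8-KO libraries, with means of 0.52 ± 0.01 and 0.33 ± 0.15 (SD, n = 2) and a difference of 0.19. Against Mapk8-KO 1 alone the difference was 0.09, and against Mapk8-KO 2 alone 0.30. With 2 libraries a group the smallest two-sided exact permutation p is 0.333, so no p is given. Distal regions with 1 site differed by 0.14 and those without a site by -0.01, and promoter regions by -0.12 (WT 0.15 ± 0.01, Mapk8-KO 0.27 ± 0.10). By number of sites, the difference was 0.18 with 2 sites, 0.16 with 3 and 0.34 in the 23 members with 4 or more. With log2 fold enrichment in place of pileup, it was 0.079 in members, 0.072 with 1 site and -0.004 without a site. With depth set on promoters it was 0.31, 0.26 and 0.11. The step from 1 site to members thus depended on the measure. In bulk ATAC-seq, fewer cells with an open region and less accessibility per cell cannot be told apart. The scale is relative within a library, so a lower value in members and a higher value in promoters also cannot be told apart.

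The direction was shared by most members. The fitted log2 difference between WT and Mapk8-KO was above 0 in 909 of the 1300 members (69.9%), against 42.6% of all 40159 regions. It was above 0 in 61.7% of distal regions with 1 site, 44.8% of those without a site and 27.4% of promoter regions. In members its median was 0.16, with quartiles of -0.04 and 0.37. Both WT values lay above both Mapk8-KO values in 462 members (35.5%), against 16.9% of all regions. The reverse was seen in 127 (9.77%), against 24.6%. Mapk8-KO 2 had the lowest of the 4 values in 56.7% of the members and Mapk8-KO 1 in 12.5%.

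Limma, with Benjamini-Hochberg adjustment over all 40159 regions, called 35 of the 1300 members higher in WT (2.69%) and 0 lower, where it called 0.496% of all regions higher and 0.11% lower. In distal regions with 1 site it called 88 higher (1.13%) and 2 lower, and without a site 56 higher (0.339%) and 29 lower. At an unadjusted p under 0.05, 229 members were higher in WT (17.6%, all regions 5.44%) and 15 lower (1.15%, all regions 5.82%). The 35 had log2 differences of 0.66 to 1.63, and 33 of them had 2 sites. They lay between genes in 23 cases and in introns in 12. In all 35, both Mapk8-KO values were below both WT values after scaling for depth, and Mapk8-KO 2 was the lowest of the 4 in 33. With 1 library left out, the spread in the fit comes from the other genotype's pair alone. The number called higher depended on the libraries and on the fit. It was 1 without Mapk8-KO 2, 153 without Mapk8-KO 1, 5 without WT 1 and 0 without WT 2, where all regions gave 20, 1087, 24 and 1. At an unadjusted p under 0.05 the fit without Mapk8-KO 2 held 83 members higher in WT (6.38%, all regions 3.08%) and that without WT 2 held 102 (7.85%, all regions 2.66%). The number was 0 without the variance trend and 0 with log2 fold enrichment in place of pileup, and 0 members were called lower in any of these.

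The largest difference was in a pair of sites 120 bp apart in an intron of Gm5175 (chr10:102829350-102830010), printed above. It had 92 and 82 fragments in WT against 55 and 14. Scaled to the depth of WT 1 these were 92.0 and 118 against 49.9 and 22.9, a log2 difference of 1.63 ± 0.23 (SE, adjusted p = 3.1e-07 by limma). Without Mapk8-KO 2 the log2 difference was 1.06. That fit has 1 mutant library, so its spread comes from the WT pair alone and its p-values are not read. Over the 10 alternative fits the log2 difference was 0.87 to 2.19, and the adjusted p was not under 0.05 in all of them.

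The other 5 of the 6 members with the smallest p kept their direction without Mapk8-KO 2. In an intron of Fbxl13, nearest to Lrrc17, a leucine-rich repeat gene, the pileups were 72 and 59 against 52 and 10 fragments (log2 difference 1.49 ± 0.25, adjusted p = 0.000115 by limma). Without Mapk8-KO 2 its log2 difference was 0.73. Near Gm37491 on chromosome 1, a pair of neighbouring members differed in the same direction. The first had 112 and 85 against 77 and 24 fragments (1.16 ± 0.20), the second 98 and 71 against 64 and 23 (1.10 ± 0.21). In an intron of 4930429D17Rik, nearest to Mapk10, which encodes the kinase JNK3, they were 67 and 50 against 37 and 15 (1.28 ± 0.25, adjusted p = 0.00106 by limma). Without Mapk8-KO 2 the log2 difference there was 1.05, and for both Gm37491 members and Gm43235 it was 0.75, 0.79 and 0.78. Near Gm43235 they were 70 and 75 against 56 and 19 fragments (1.13 ± 0.22). Among arrays, limma called 1 of the 21 that were open in all 4 libraries. It lay near Usp7, a deubiquitinase gene, with 5 sites of which 3 form the array, and had 96 and 59 against 66 and 19 fragments (1.07 ± 0.22, adjusted p = 0.00246 by limma).

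**Figure D4:**
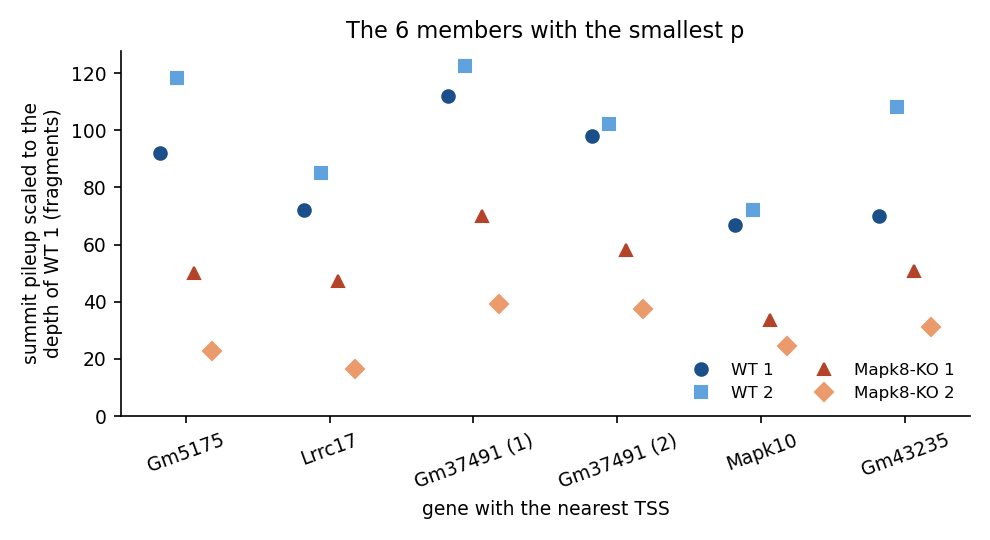
Summit pileup scaled to the depth of WT 1 (fragments, y axis) in each of the 4 libraries for the 6 members with the smallest limma p, named by the nearest gene; there are no error bars, and each point is 1 library. In all 6, both WT points lie above both Mapk8-KO points, and Mapk8-KO 2 is the lowest.

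**Figure D5:**
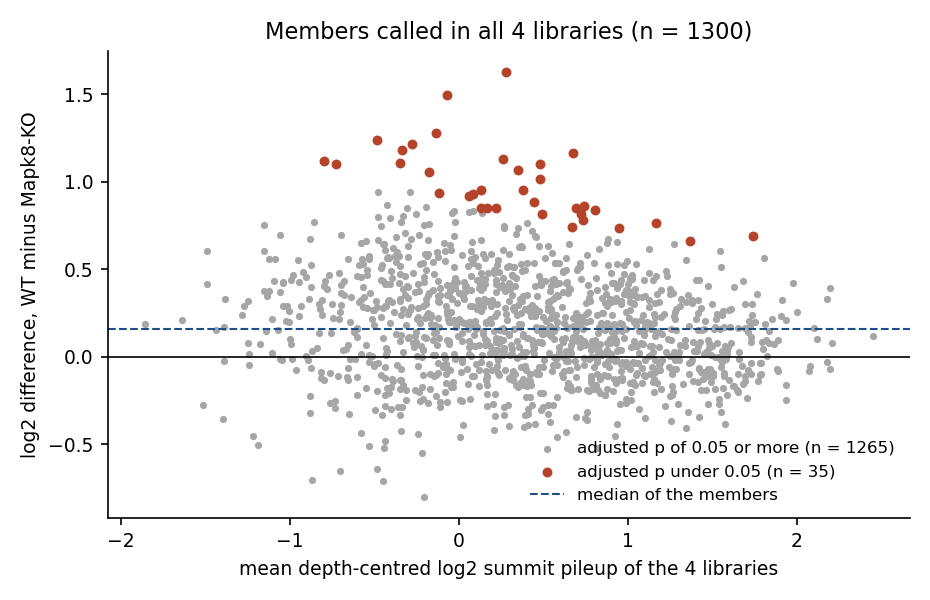
Fitted log2 difference between WT and Mapk8-KO (y axis) against the mean depth-centred log2 summit pileup of the 4 libraries (x axis) for the 1300 members called in all 4. The dashed line is the median of 0.16, and the 35 members with an adjusted p under 0.05 all lie above 0.

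By rank of fold enrichment within a library, which needs no depth scaling, 100 of the 1300 members stood at least 10 percentile points higher in both WT than in both Mapk8-KO libraries (7.69%, all regions 4.65%). In the opposite direction there were 19 (1.46%, all regions 4.07%). Of distal regions with 1 site, 7.41% stood higher in WT, close to the share of members, and 2.52% higher in Mapk8-KO. Without Mapk8-KO 2 the numbers of members were 151 (11.6%, all regions 9.54%) and 64 (4.92%, all regions 9.48%).

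Gene lists relevant to the epidermis held members at about the share of all distal regions. Of 124 genes in 11 lists, 16 were nearest to a member, with 17 members among 412 distal regions (4.13%, all distal regions 3.84%). These lists were chosen with earlier results of these data known. Inflammatory mediators had 4 members among 44 distal regions, and all 4 were open in every library. A member 4877 bp from the TSS of Il24 had 115 and 74 against 98 and 50 fragments (log2 difference 0.38 ± 0.19, adjusted p = 0.423 by limma). Its neighbour near Il20, a cytokine gene of the same family, had 64 and 40 against 52 and 31. Of 2 members near Il33, an alarmin gene, the stronger had 100 and 64 against 107 and 50 fragments. Limma called 0 of the 4.

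Among basal keratin and adhesion genes, members lay near Itga6, Col17a1 and Plec, which encode parts of the hemidesmosome. The member in Itga6, the gene of the CD49f antigen by which the cells were sorted, had 54 and 42 against 58 and 39 fragments (log2 difference -0.02 ± 0.22). Among lineage factors, a member near Ets2, an ETS family factor, had 63 and 41 against 56 and 26 (0.39 ± 0.23), and one near Trp63, which encodes p63, was called in WT 1 (26 fragments) and Mapk8-KO 1 (27 fragments). For migration and matrix proteolysis they lay near Vcl, encoding vinculin, with 135 and 82 against 129 and 77, near Cd44 with 92 and 61 against 96 and 43, and near Mmp13. The member near Cdk6, a cell cycle kinase gene, had 28 and 18 against 37 and 15. Limma called 0 of these. In the list of the JNK pathway, the member near Mapk10 was higher in WT, and that in Map3k1, a kinase upstream of JNK, had 46 and 21 against 45 and 18 fragments (0.11 ± 0.28). For the receptor Egfr and its ligands, 1 member in an intron of Egfr was called in WT 1 (26 fragments) and Mapk8-KO 1 (30 fragments), the deeper library of each genotype. The lists of AP-1 factors, stress keratins, cornified envelope genes and TGF-beta signalling had no member among only 16, 4, 41 and 36 distal regions, too few to read a lack of members from them, nor did Elovl1, Cdc20, Tgm3, Hbegf or Areg.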

How the data were processed

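ATAC-seq of 4 libraries (2 WT, 2 Mapk8-KO) was analysed from the deposited peak lists. Per the study's methods, the authors aligned reads to mm10 with Bowtie2 and removed those with several mapped positions or low mapping quality. They called peaks with MACS2 in paired-end mode, and the parameters they list name no control library. The labels also name STAR 2.5.3 and Trimmomatic 0.36, and a shift for Tn5 insertion is not given in the sources used here. The deposited columns hold the authors' fold enrichment over local background at the summit (a ratio), −log10 p and −log10 q of each peak, and an integer score made by MACS2. From fold enrichment and −log10 p, the summit pileup was solved, which came out whole within 0.05 fragments for at least 99.996% of peaks per library. Pileups are not read counts over regions, so no count model was used, and a peak list holds no value for regions below its threshold.

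Peaks were merged at 1 bp overlap with Python 3.11.15. Sequence, repeat masking and TSSs came from GRCm38 and the GENCODE M21 basic set. Depth was set by centring log2 pileup on each library's median over 40159 regions called in all 4 libraries, and WT was compared with Mapk8-KO by limma 3.58.1 (R 4.3.3) allowing the variance to follow the mean level, with p-values adjusted over these regions by the Benjamini-Hochberg method (threshold 0.05). Ranks were percentiles of fold enrichment, compared at a gap of 10 points. Intervals for shares are 95% Wilson intervals and cover counting error only. The fit was tested on simulated data. Named members were the 6 with the most sites, the 6 with the highest lowest-library percentile, the 6 with the smallest p, the 4 of each kind called in 1 genotype only, the 4 with the closest sites, the strongest of each gene list and any nearest to Egfr. The arrays near Gm24308, A530006G24Rik and Usp7 and the remaining list members were chosen after their values were seen. Some members that these rules name are not reported here. The members, gene lists and tests were chosen with earlier results of these data known.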

Additional observations from a re-analysis of the deposited data

How the results depend on the processing

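Of 75 alternatives, 32 moved a value, by over 1.5 times for a count or by 1 SD between libraries or more for a difference. The label reversed was given to 0, but a count could not receive it, so the 0 speaks only of the differences. That SD is wide with 2 libraries a group. The difference in members called per library (358.5) thus counts as not moved although it was 26.5 to 690.5 when 1 library was left out. The number of members was 1795 to 2710 under other windows, distances and peak thresholds. The count of members higher in WT by limma (35) was 0 without the variance trend, 0 with log2 fold enrichment, 20 with cyclic loess, 17 at a mean pileup of 20 fragments or more, and 13 with depth by the median ratio to WT 1, a setting chosen after seeing the data. Leaving out 1 library gave 0 to 153, and 0 members were lower in WT in every fit run. Members called in both WT libraries only (84) numbered 87 to 543 when 1 library was left out (3.74% to 23.3%, all regions 2.56% to 12.1%). Without WT 2 their share (10.0%) was below that of all regions (11.3%). Those called in both Mapk8-KO libraries only (6) numbered 10 to 85 when 1 library was left out (0.430% to 3.65%, all regions 2.21% to 10.1%). They numbered 3 with lists of equal number (0.129%, all regions 1.83%) and 1 within 100 bp of the summit. The median log2 difference of 0.19 was 0.31 with depth set on promoters and 0.079 with log2 fold enrichment, and 0.09 to 0.30 when 1 library was left out. For distal regions with 1 site (0.14) it was 0.26 with depth set on promoters and 0.072 with log2 fold enrichment. On fold enrichment members thus hardly differed from them. Members ranked higher in WT (100) numbered 174 at a gap of 5 points (13.4%, all regions 8.66%) and 19 at a gap of 20 points (1.46%, all regions 1.23%). They numbered 151 to 347 when 1 library was left out (11.6% to 26.7%, all regions 9.54% to 15.4%). Without WT 2 the shares were 13.2% and 11.2%. For Mapk8-KO (19) the numbers were 45 (3.46%, all regions 8.61%), 3 (0.231%, all regions 0.777%) and 64 to 85 (4.92% to 6.54%, all regions 9.48% to 16.1%). Members without tandem arrays, also a set chosen after seeing the data, gave 0.18 for the median log2 difference. The causes of these changes were not tested, except that fewer libraries make the presence and rank rules easier to meet.

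Replicate numbers pair nothing that the labels state. Deviations of libraries with the same number correlated at 0.04 over all regions and 0.06 over members, with 2 pairs. With the replicate block limma called 46 members higher in WT, and the median log2 difference within pairs was 0.15 (0.05 for number 1 and 0.25 for number 2).

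Depth limits the presence calls. The lowest called pileup was 8 to 10 fragments per library, and a member below its list's threshold has no value there.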

Other observations

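Promoter regions with at least 2 AP-1 sites within 150 bp of the summit numbered 304, of which 184 were called in all 4 libraries. Their median log2 difference between WT and Mapk8-KO was 0.13, and limma called 4 of the 184 higher in WT and 0 lower, against 20 higher and 13 lower of all 14530 promoter regions called in every library. Both WT libraries alone had a peak in 6 of the 304 (1.97%, Wilson interval 0.908 to 4.24, all promoter regions 1.17%). Both Mapk8-KO libraries alone had one in 0, which allows a share of up to 1.25% by the Wilson interval (all promoter regions 1.11%). Neither count separates these regions from all promoter regions.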
